A study of Rattus norvegicus with 11 samples.

Results

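The genes described here are 10 transcripts that mark T cells and natural killer cells: Cd3d, Cd3e, Cd3g, Cd4, Cd8a, Cd8b, Nkg7, Gzmb, Prf1 and Klrd1. They were taken by gene symbol from the tables of all 23781 genes. All 10 were found and all 10 passed the filter on low counts, as did 18049 genes in total.

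T cells recognise antigen through the T cell receptor, which is carried to the cell surface and coupled to signaling by the CD3 chains. CD4 marks helper and regulatory T cells and CD8 marks cytotoxic T cells, whereas in the rat CD4 is also made by monocytes and macrophages. Cytotoxic T cells and natural killer cells kill by releasing perforin, which opens the target membrane, and granzymes, which enter through it. In healing bone, lymphocytes are known as a source of cytokines that act on bone-forming and bone-resorbing cells.

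The libraries came from a calvarial suture-bony composite defect in Sprague Dawley rats of 4 months, a wound that removes a cranial suture together with bone, and nascent tissue was harvested after 6 weeks. The defect was left without a scaffold (NC, 3 libraries) or received a gelatin methacryloyl hydrogel (GelMA, 3 libraries), a porous chitosan scaffold (CTS, 3 libraries) or an electrospun polylactic acid membrane (PLA, 2 libraries). All groups share the defect, the collagenase digestion, red cell lysis, fixation and the sort for Cd45- cells. The labels do not say whether a library held 1 animal or several, so the p-values measure the spread between these libraries.

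Total counts ran from 22509898 to 31290849 per library, and the 10 genes together took 0.00686% to 0.0768% of them. The label Cd45- was checked against Ptprc, the gene for Cd45, which was present in every library with 7446 to 44842 counts. The antibody clone named in the study's methods is one raised against mouse Cd45, and its part in these counts was not tested. By the Ptprc counts, transcripts of white blood cells were part of all 11 libraries. Levels are given in CPM (counts on a common library total, after TMM scaling). The sums of 8 pan-leukocyte markers ran from 3996 to 5936 CPM in every library except NC replicate 2, where they stood at 1476 CPM. NC replicate 2 also stood apart by its collagen genes, which took 16.9% of its counts and at most 3.48% elsewhere. In bulk libraries like these, fewer cells of a type and less RNA per cell cannot be told apart.

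The 10 genes differed most in GelMA. Their summed level was 629 to 686 CPM in the 3 GelMA libraries, 278 to 297 CPM in the 2 PLA libraries, 168 to 299 CPM in the 3 CTS libraries and 85.3 to 165 CPM in the 3 NC libraries. No other library came near the GelMA range, PLA lay within the range of CTS, and the ranges of CTS and NC came close without overlapping. The sums weigh abundant genes most. Nkg7 gave 89.1 of 143 CPM in NC replicate 1 and 96.4 of 165 CPM in NC replicate 3. It gave 56.2 to 73.0 CPM in CTS and 16.4 to 20.4 CPM in PLA. Cd4 gave 156 to 179.5 CPM in GelMA. Of the 10 genes, 8 passed a test over the 4 groups (edgeR quasi-likelihood F test, p adjusted over all genes tested, threshold 0.05), beside 18.8% of all genes tested. Nkg7, with an adjusted p of 0.111, and Klrd1, with 0.0977, did not.

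**Figure D1:**
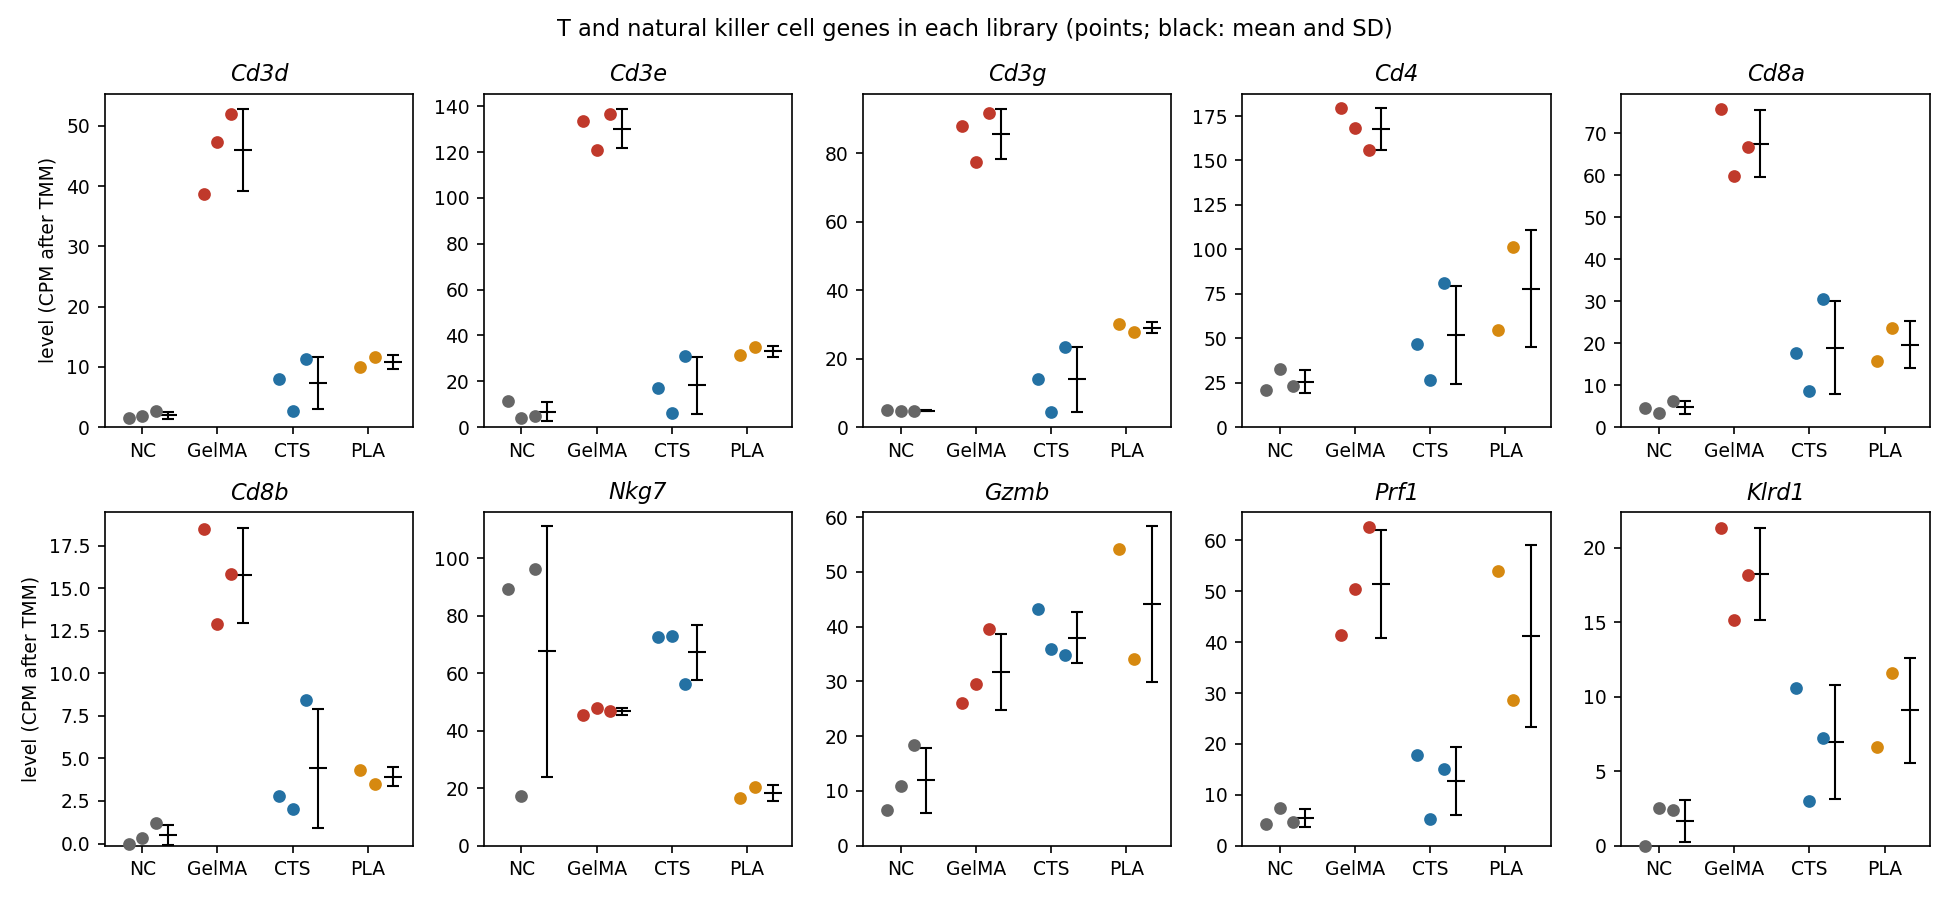
Level of each of the 10 genes in each of the 11 libraries, in CPM after TMM scaling, by group, on linear axes that differ between genes. Points are libraries and the black marks are the group mean and SD. The 3 GelMA libraries stand above all others for Cd3d, Cd3e, Cd3g, Cd4, Cd8a, Cd8b and Klrd1, Prf1 is high in GelMA and PLA, and Nkg7 is lowest in PLA and in NC replicate 2.

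The CD3 chains were the clearest of the 10. Cd3e, the CD3 epsilon chain that every CD3 dimer contains, stood at 11.4, 4.11 and 4.82 CPM in NC replicates 1 to 3, at 133, 121 and 137 CPM in GelMA, at 17.0, 6.29 and 31.2 CPM in CTS and at 31.4 and 34.8 CPM in PLA. Cd3d, the delta chain, stood at 1.44, 1.90 and 2.60 CPM in NC, at 38.7, 47.4 and 52.1 CPM in GelMA, at 7.97, 2.66 and 11.2 CPM in CTS and at 9.95 and 11.6 CPM in PLA. Cd3g, the gamma chain, stood at 4.92, 4.61 and 4.82 CPM in NC, at 87.9, 77.5 and 91.6 CPM in GelMA, at 14.1, 4.49 and 23.3 CPM in CTS and at 30.3 and 27.9 CPM in PLA. For all 3 chains GelMA lay above every other library, NC had the lowest group mean, and CTS was spread widely between its lowest library, replicate 2, and its highest, replicate 3. CTS replicate 2 lay below all NC libraries for Cd3g and below NC replicate 1 for Cd3e, so CTS and NC overlapped for these chains and not for Cd3d.

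GelMA exceeded NC in all 3 chains, with log2 fold changes of 4.53 ± 0.49 (SE) for Cd3d, adjusted p = 0.000661, 4.26 ± 0.58 for Cd3e, adjusted p = 0.00186, and 4.16 ± 0.49 for Cd3g, adjusted p = 0.000856. On the linear scale the Cd3e difference was 19.2-fold. PLA also exceeded NC, by 2.44 ± 0.49 for Cd3d, adjusted p = 0.00831, 2.29 ± 0.57 for Cd3e, adjusted p = 0.0229, and 2.60 ± 0.48 for Cd3g, adjusted p = 0.00593. The GelMA calls and the Cd3g call in PLA held without any 1 of the 11 libraries. In PLA the Cd3d call was lost without PLA replicate 2 (adjusted p = 0.0553), and the Cd3e call was lost without NC replicate 3, PLA replicate 1 or PLA replicate 2 (adjusted p up to 0.108).

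CTS was lower than GelMA in all 3 chains, with log2 fold changes of -2.66 ± 0.45 for Cd3d, adjusted p = 0.0203, -2.84 ± 0.54 for Cd3e, adjusted p = 0.0304, and -2.62 ± 0.45 for Cd3g, adjusted p = 0.0223. These 3 calls were lost when any GelMA library or CTS replicate 1 was left out, with adjusted p up to 0.102 for Cd3d, 0.135 for Cd3e and 0.111 for Cd3g, and the Cd3e call also without CTS replicate 2 or either PLA library. PLA was lower than GelMA in Cd3d, by a log2 fold change of -2.09 ± 0.51, adjusted p = 0.0321, a call that was lost without any GelMA library, CTS replicate 1 or either PLA library (adjusted p up to 0.200). Cd3e (-1.98 ± 0.61, adjusted p = 0.0705) and Cd3g (-1.56 ± 0.50, adjusted p = 0.0818) did not pass there, although the libraries of the groups did not overlap. CTS against NC passed for none of the chains, with adjusted p from 0.134 to 0.324, and neither did PLA against CTS. The order of group means was GelMA, PLA, CTS and NC for each chain, and the neighbours PLA and CTS, and CTS and NC, were not told apart by the test.

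The sequences before the starts of these genes are shown because the 3 chains moved together and are neighbours, in the order Cd3g, Cd3d and Cd3e, in the RefSeq annotation of rat assembly GRCr8. Each is the 150 bases ahead of the annotated start, from RefSeq, 5′ to 3′ on the gene's strand, at chr8:54185369-54185518 (plus strand) for Cd3d, chr8:54211771-54211920 (minus strand) for Cd3e and chr8:54183919-54184068 (minus strand) for Cd3g. Capitals mark matches, on either strand, to 6 short motifs that factors of lymphocytes and of general transcription can bind. The RUNX core was spelled as TGTGGT and the ETS core was spelled as AGGAAG. The CRE core was spelled as TGACGT and the E-box was spelled as CAGCTG. The GATA motif was spelled as AGATAA and the TATA box was spelled as TATAAA, and no marked matches overlap.
Cd3d: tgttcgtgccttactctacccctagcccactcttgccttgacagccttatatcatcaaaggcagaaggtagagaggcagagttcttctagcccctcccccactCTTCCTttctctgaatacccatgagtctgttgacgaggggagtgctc
Cd3e: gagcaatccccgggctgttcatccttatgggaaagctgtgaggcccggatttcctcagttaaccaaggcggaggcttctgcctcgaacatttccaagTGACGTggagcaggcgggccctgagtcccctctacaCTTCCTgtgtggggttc
Cd3g: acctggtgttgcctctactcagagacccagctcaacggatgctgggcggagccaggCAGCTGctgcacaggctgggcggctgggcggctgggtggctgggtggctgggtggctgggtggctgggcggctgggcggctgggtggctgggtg
Cd3d and Cd3e both held the ETS core on the minus strand, 47 and 17 bases ahead of the start, and Cd3e held the CRE core 53 bases ahead. Cd3g held the E-box 94 bases ahead, in front of a run of repeated letters. Among the 33469 RefSeq promoter windows of this length, 19.3% held the ETS core, 5.31% the CRE core and 7.63% the E-box, and none of the 6 motifs was common to the 3 chains.

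Of the coreceptors, Cd4 stood at 21.0, 32.8 and 23.1 CPM in NC replicates 1 to 3, at 179.5, 168 and 156 CPM in GelMA, at 46.9, 26.7 and 81.3 CPM in CTS and at 54.8 and 101 CPM in PLA. GelMA again lay above all other libraries, and CTS replicate 2 lay within the NC range. The log2 fold change was 2.71 ± 0.39 in GelMA against NC, adjusted p = 0.00262, and 1.60 ± 0.41 in PLA against NC, adjusted p = 0.0250. The PLA call was lost without NC replicate 1, NC replicate 3, GelMA replicate 2 or PLA replicate 2 (adjusted p up to 0.231). Since rat Cd4 is shared with monocytes and macrophages, the 12 markers of those cells are given beside it. Their summed level was 338 to 489 CPM in NC, 1497 to 1670 CPM in GelMA, 760 to 886 CPM in CTS and 1129 to 1168 CPM in PLA, the same order as Cd4, and 9 of 11 tested were called higher in GelMA than in NC (5.03% of all genes). Marco had no count in NC, GelMA or PLA, and every other marker on that list had counts in each group. The part of these cells in the Cd4 result was not tested.

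Cd8a, the alpha chain of CD8, stood at 4.58, 3.30 and 6.24 CPM in NC, at 75.8, 59.9 and 66.7 CPM in GelMA, at 17.8, 8.63 and 30.5 CPM in CTS and at 15.7 and 23.6 CPM in PLA. Cd8b, the beta chain, which conventional cytotoxic T cells pair with alpha, was scarce in NC, with 0, 7 and 31 counts, or 0, 0.316 and 1.19 CPM, and stood at 18.5, 12.9 and 15.9 CPM in GelMA, at 2.78, 2.05 and 8.42 CPM in CTS and at 4.31 and 3.52 CPM in PLA. Both chains were at their lowest in NC, which overlapped with no other group, and highest in GelMA, while CTS and PLA overlapped. GelMA exceeded NC by a log2 fold change of 3.84 ± 0.45 for Cd8a, adjusted p = 0.000837, and 4.94 ± 0.96 for Cd8b, adjusted p = 0.0117, and both calls held without any 1 library. PLA exceeded NC in Cd8a by 2.06 ± 0.45, adjusted p = 0.0130, a call that was lost without PLA replicate 2 (adjusted p = 0.104), and was lower than GelMA by -1.78 ± 0.47, adjusted p = 0.0435, a call that was lost without any GelMA library, CTS replicate 1 or either PLA library (adjusted p up to 0.261). Cd8b in PLA against NC had a log2 fold change of 2.93 ± 0.96 with an adjusted p of 0.0652. CTS against GelMA just missed the threshold for Cd4 (-1.70 ± 0.38, adjusted p = 0.0505) and Cd8a (-1.83 ± 0.41, adjusted p = 0.0505). Cd8a and Cd8b are neighbours in the GRCr8 annotation, and the window before Cd8a held none of the 6 motifs.

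The effector genes differed among themselves in how they compared with the CD3 chains. Prf1, perforin, stood at 4.24, 7.41 and 4.75 CPM in NC replicates 1 to 3, at 41.4, 50.4 and 62.6 CPM in GelMA, at 17.9, 5.15 and 15.1 CPM in CTS and at 53.9 and 28.6 CPM in PLA. The group means had the same order as for the CD3 chains, but GelMA and PLA overlapped, and both lay above all NC and CTS libraries. The overlap depended on the TMM scaling, whose factors were 0.78 and 0.772 in PLA and 1.116 to 1.144 in GelMA. In FPKM, Prf1 was 24.3 to 36.1 in GelMA and 21.6 and 11.4 in PLA, without overlap. The log2 fold change was 3.24 ± 0.47 in GelMA against NC, adjusted p = 0.00262, and 2.92 ± 0.49 in PLA against NC, adjusted p = 0.00330, and both calls held without any 1 library. Prf1 was the 1 gene of the 10 called higher in PLA than in CTS (1.70 ± 0.47, adjusted p = 0.0392), and CTS was lower than GelMA (-2.02 ± 0.44, adjusted p = 0.0495). Each of these calls was lost on leaving out any of 9 of the 11 libraries, all except NC replicates 1 and 2, with adjusted p up to 0.295 and 0.181. The call of PLA over CTS was also lost with scaling by library size alone and with limma on FPKM.

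Gzmb, granzyme B, stood at 6.53, 10.9 and 18.3 CPM in NC, at 26.1, 29.5 and 39.5 CPM in GelMA, at 43.3, 36.0 and 34.8 CPM in CTS and at 54.2 and 34.1 CPM in PLA. All 3 scaffold groups lay above NC and overlapped with each other, so that the lead of GelMA seen for the CD3 chains was not present here. The log2 fold change against NC was 1.41 ± 0.35 in GelMA, adjusted p = 0.0298, and 1.89 ± 0.38 in PLA, adjusted p = 0.00835. In CTS it was 1.67 ± 0.35 with an adjusted p of 0.0897. The GelMA call was lost without any GelMA or any CTS library (adjusted p up to 0.130), and the PLA call was lost without PLA replicate 1 (adjusted p = 0.0868). Plasmacytoid dendritic cells are also known to make granzyme B, and the sum of 7 markers of those cells was 234 to 265 CPM in NC, 693 to 899 CPM in GelMA, 419.6 to 717 CPM in CTS and 749 to 753 CPM in PLA, so that it too was above NC in all 3 scaffold groups. Of these 7 markers 4 passed the 4-group test, beside 18.8% of all genes tested. In CTS against GelMA 2 of the 7, Siglech and Runx2, were called lower and 0 higher, beside 1.32% and 0.416% of all genes. Siglech was lower there by -2.65 ± 0.32, adjusted p = 0.00707. In PLA against CTS 1 of the 7 was called higher and 0 lower, beside 6.42% and 3.53% of all genes. That gene was again Siglech (2.66 ± 0.34, adjusted p = 0.00094). Gzmb passed in neither comparison. The study counts Runx2 among osteogenic genes, so the sum is not particular to plasmacytoid dendritic cells. The part of these cells in the Gzmb values was not tested. Gzmb lies beside Gzmc within a family of similar granzyme genes, and the deposited counts do not show how reads shared between them were assigned.

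Klrd1, the CD94 chain of inhibitory and activating natural killer cell receptors, had 0, 56 and 63 counts in NC, or 0, 2.53 and 2.41 CPM. It stood at 21.3, 15.1 and 18.1 CPM in GelMA, at 10.6, 2.97 and 7.21 CPM in CTS and at 6.59 and 11.6 CPM in PLA. NC was lowest and GelMA highest with no overlap, and NC itself was spread from 0 upward. GelMA exceeded NC by a log2 fold change of 3.46 ± 0.95, adjusted p = 0.0441, a call that was lost on leaving out any of 9 libraries, all except NC replicates 1 and 2 (adjusted p up to 0.121). PLA against NC had 2.46 ± 0.97 with an adjusted p of 0.119, and Klrd1 passed in no other comparison.

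Nkg7, a granule membrane protein of natural killer and cytotoxic T cells, went a different way. Its level was 89.1, 17.4 and 96.4 CPM in NC replicates 1 to 3, 45.6, 47.9 and 46.8 CPM in GelMA, 72.7, 73.0 and 56.2 CPM in CTS and 16.4 and 20.4 CPM in PLA. NC replicate 2 lay within the range of PLA and far below the other NC libraries, and PLA was otherwise the lowest group. Per base of gene length, Nkg7 was the most abundant of the 10 in NC, at 73.9 ± 51.6 FPKM (SD, n = 3) beside a mean of at most 8.20 FPKM for the other 9, while in GelMA its 55.0 ± 0.70 FPKM was below Cd3g at 111 ± 10.1 and Cd3e at 94.2 ± 6.76. PLA was lower than NC by a log2 fold change of -1.88 ± 0.56, adjusted p = 0.0482, although the libraries overlapped. GelMA against NC gave -0.53 ± 0.47 (adjusted p = 0.492) and CTS against NC gave -0.01 ± 0.47 (adjusted p = 0.997).

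The Nkg7 result turned on NC replicate 2. Without it the log2 fold change in PLA was -2.33 against NC (adjusted p = 7.37e-06), -1.34 against GelMA (adjusted p = 0.000149) and -1.87 against CTS (adjusted p = 1.26e-05), the value in GelMA against NC was -0.99 (adjusted p = 0.00093), and the 4-group test gave an adjusted p of 1.68e-05. With all libraries, PLA against GelMA (-1.34 ± 0.55, adjusted p = 0.160) and PLA against CTS (-1.87 ± 0.56, adjusted p = 0.0524) did not pass, and the PLA against NC call was lost on leaving out any of the other 10 libraries (adjusted p up to 0.248). Neutrophil markers are given beside Nkg7, and the sum of 10 such genes was 69656, 9346 and 48346 CPM in NC replicates 1 to 3, 4411 to 11798 CPM in GelMA, 27942 to 47804 CPM in CTS and 7959 to 8707 CPM in PLA. Both this sum and Nkg7 were low in NC replicate 2 and in PLA, whereas in GelMA the sum was low and Nkg7 was higher than in PLA. The median log2 fold change of the neutrophil markers in PLA against GelMA was 0.03, beside -1.34 for Nkg7. Mast cell and basophil markers, 7 genes summed, were high in NC (315 to 1032 CPM) and CTS (281 to 383 CPM) and low in GelMA (51.5 to 60.7 CPM) and PLA (45.1 to 55.0 CPM), with NC replicate 2 the highest. The part of these cells in the Nkg7 values was not tested.

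The windows before Nkg7, Prf1 and Gzmb are shown because these genes of the same cytotoxic granules had different levels across the groups. They lie at chr1:102981347-102981496 (plus strand) for Nkg7, chr20:29788890-29789039 (plus strand) for Prf1 and chr15:34462470-34462619 (minus strand) for Gzmb in GRCr8, with the same motifs in capitals.
Nkg7: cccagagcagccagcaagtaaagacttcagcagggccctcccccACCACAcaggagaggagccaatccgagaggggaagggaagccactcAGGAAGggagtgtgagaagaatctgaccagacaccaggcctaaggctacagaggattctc
Prf1: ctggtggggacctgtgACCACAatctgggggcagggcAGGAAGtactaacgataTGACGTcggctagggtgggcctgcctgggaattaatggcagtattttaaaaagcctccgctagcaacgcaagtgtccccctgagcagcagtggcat
Gzmb: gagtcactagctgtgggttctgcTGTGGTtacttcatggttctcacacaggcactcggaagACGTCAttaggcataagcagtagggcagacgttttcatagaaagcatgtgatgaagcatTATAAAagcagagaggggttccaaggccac
All 3 held the RUNX core, 106 bases ahead of the start in Nkg7, 134 in Prf1 and 127 in Gzmb, a motif held by 8.38% of all windows. Nkg7 and Prf1 also held the ETS core, Prf1 and Gzmb the CRE core, and Gzmb alone of the 7 windows searched held the TATA box, which 8% of all windows hold. The GATA motif, held by 5.96% of windows, was in none of the 7. No sequence is shown for Cd4, Cd8b and Klrd1.

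Counted over the 10 genes, GelMA against NC had 9 called higher and 0 called lower (called at adjusted p below 0.05 with a log2 fold change over 1 in size), where 5.03% of all genes tested were higher and 3.21% lower. No gene of the 10 had an unadjusted p under 0.05 in the lower direction, and DESeq2 and limma also called 9 higher and 0 lower. The median log2 fold change of the 10 was 3.65, beside -0.05 over all genes. Leaving out NC replicate 2 left 9 called higher, and leaving out any single library left 7 to 9.

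PLA against NC had 7 called higher, beside 8.32% of all genes, and 1 called lower, beside 4.01%, with a median of 2.36 beside -0.11 over all genes. Leaving out NC replicate 2 left both counts as they were, and without PLA replicate 2 there were 3 called higher. PLA against GelMA had 2 called lower, where 1.47% of all genes were lower, and 0 called higher, where 4.61% were, and 0 also by DESeq2, by limma and at an unadjusted p under 0.05. The 2 lower calls became 0 without any GelMA library, CTS replicate 1 or either PLA library, and 4 without NC replicate 2, CTS replicate 2 or CTS replicate 3. PLA against CTS had 1 called higher, beside 6.42% of all genes, and 0 called lower, beside 3.53%, where 1 gene, Nkg7, had an unadjusted p under 0.05 and DESeq2 and limma called 1 each.

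CTS against NC had 0 called in either direction with edgeR, where 0.155% of all genes were higher and 0.0222% lower. At an unadjusted p under 0.05, 9 of the 10 were higher and 0 lower, DESeq2 called 5 higher and limma 0, both called 0 lower, and the median log2 fold change was 1.61 beside -0.02 over all genes. Leaving out CTS replicate 2 gave 3 called higher. CTS against GelMA had 4 called lower, beside 1.32% of all genes, and 0 called higher, beside 0.416%, with 0 higher by DESeq2, limma and at an unadjusted p under 0.05. The 4 became 0 without any GelMA library or CTS replicate 1, 2 without CTS replicate 2 or either PLA library, and 6 without NC replicate 1 or NC replicate 2. The 3 comparisons with NC share the NC libraries, and the others share scaffold libraries in the same way.

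**Figure D2:**
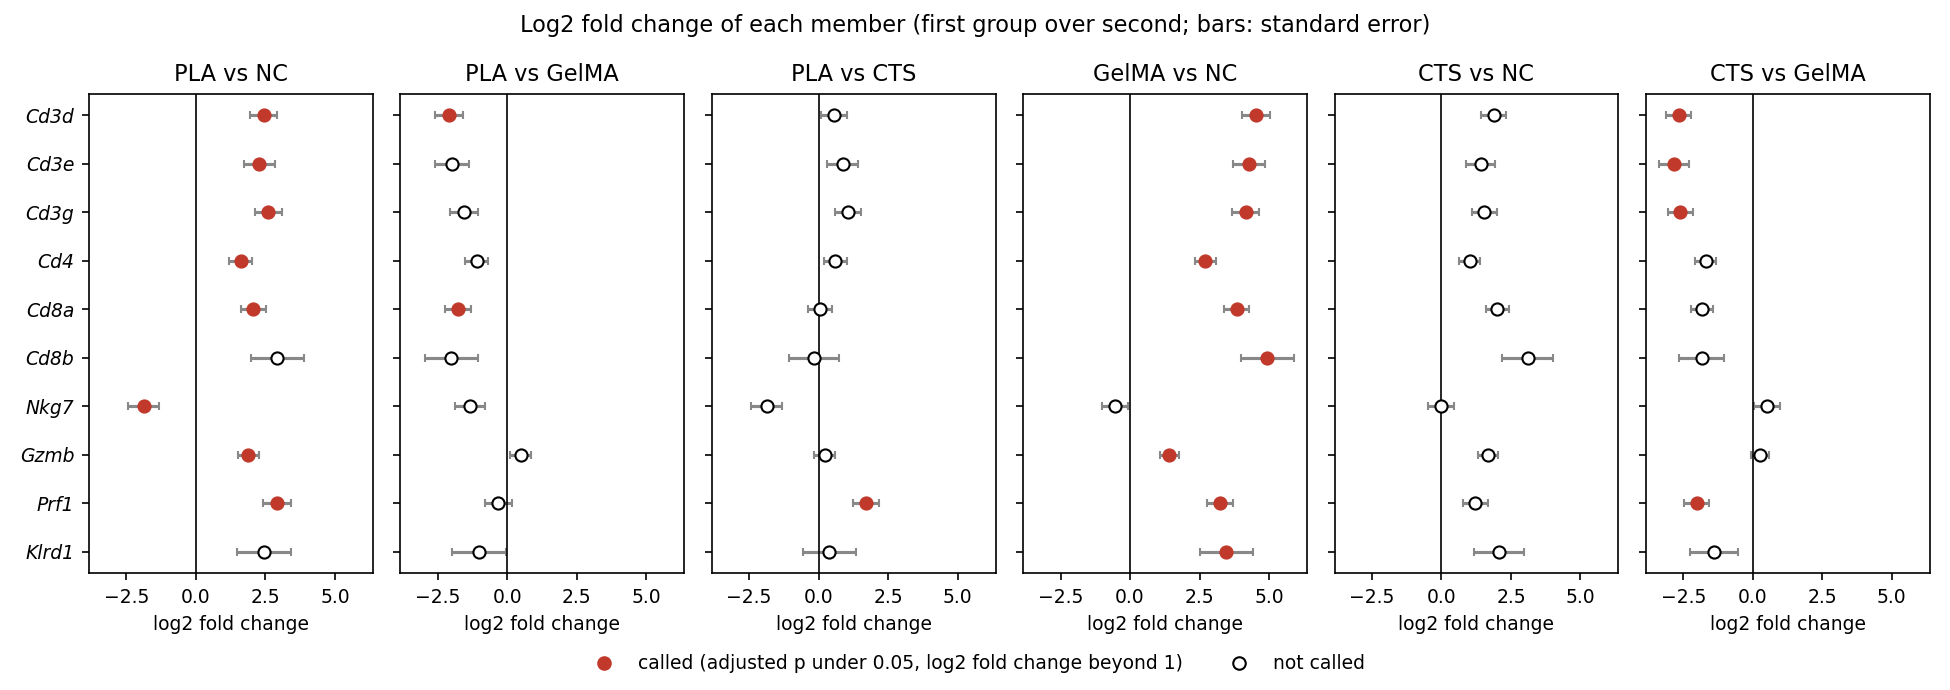
Log2 fold change of each of the 10 genes in the 6 pairwise comparisons, first group over second, with bars of 1 standard error from the edgeR fit. Red points passed both thresholds, 0.05 for the adjusted p and 1 for the size of the log2 fold change. In GelMA against NC 9 genes are red and to the right, and Nkg7 at -0.53 is the exception, while in CTS against NC no gene is red.

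Ratios of counts within a library do not depend on how libraries are scaled, and 6 were compared over the 4 groups with an exact permutation test of all 92400 assignments of the libraries, adjusted over the 6. Cd3e relative to Ptprc sets the T cell transcript against the transcript that all white blood cells share. Its log2 ratio was -7.00, -6.35 and -7.91 in NC, -3.34, -3.24 and -3.20 in GelMA, -6.22, -7.55 and -5.05 in CTS and -5.02 and -4.92 in PLA, exact p = 0.00312, adjusted p = 0.0187. GelMA was highest and overlapped with no group, PLA followed, and CTS and NC overlapped. Ptprc itself differed less, with means of 988 ± 583, 1248 ± 105, 1164 ± 119 and 1038 ± 25.3 CPM in NC, GelMA, CTS and PLA (SD, n = 3, 3, 3 and 2).

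Gzmb relative to Prf1 had log2 ratios of 0.62, 0.55 and 1.95 in NC, -0.66, -0.77 and -0.66 in GelMA, 1.28, 2.80 and 1.20 in CTS and 0.01 and 0.26 in PLA, exact permutation p = 0.00864, adjusted p = 0.0259. Perforin counts thus exceeded granzyme B counts in GelMA alone, the 2 counts were near equal in PLA, and granzyme B counts exceeded perforin counts in all NC and CTS libraries. Prf1 is the longer gene of the pair. Per base of length, Gzmb exceeded Prf1 in both PLA libraries, with 29.2 beside 21.6 FPKM and 18.2 beside 11.4 FPKM. Prf1 still exceeded Gzmb in every GelMA library on that scale. Cd8a relative to Cd4 ran from -3.30 to -1.88 in NC, -1.49 to -1.22 in GelMA, -1.63 to -1.40 in CTS and -2.10 to -1.80 in PLA, with more Cd4 than Cd8a counts in every library, exact permutation p = 0.0281, adjusted p = 0.0561. Cd4 is the longer gene, and per base of length GelMA replicate 3 had slightly more Cd8a, 53.8 FPKM, than Cd4, 53.2 FPKM, while the other 10 libraries had more Cd4. NC replicate 2 held the lowest log2 ratio of all, and without it the adjusted p was 0.0270. The adjusted p of the first and second of these ratios rose to 0.0911 at most when a library was left out, and was above 0.05 for Cd3e to Ptprc without any GelMA library or CTS replicate 1, and for Gzmb to Prf1 also without CTS replicate 3.

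The other ratios did not pass. Cd8b relative to Cd8a (adjusted p = 0.232) was close to -2 on the log2 scale in most libraries and -7.76 in NC replicate 1, where Cd8b had no count and the value rests on the 0.5 added to each count. Klrd1 relative to Cd3e (adjusted p = 0.873) was lowest in NC replicate 1 for the same reason, at -9.07, and lay between -2.99 and -2.64 in GelMA, below the CTS range of -2.11 to -0.68. Prf1 relative to Cd3e (adjusted p = 0.246) lay between -1.69 and -1.13 in GelMA and at 0.78 and -0.28 in PLA.

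**Figure D3:**
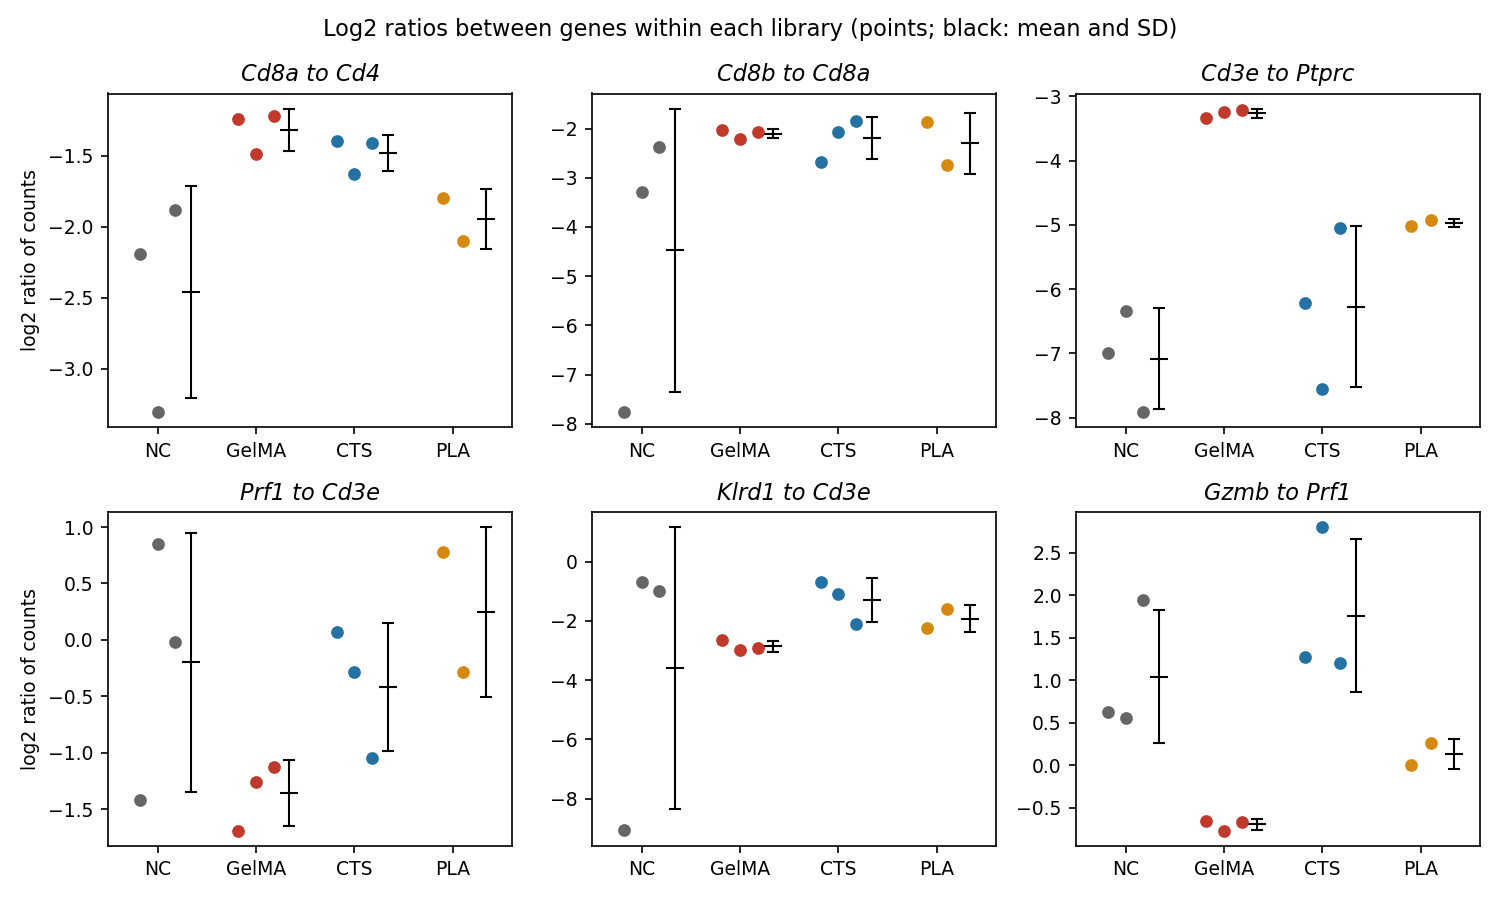
Log2 ratio of the counts of a pair of genes within each library, with 0.5 added to each count, by group. Points are libraries and black marks the group mean and SD. Cd3e to Ptprc is highest in GelMA, near -3.26, and Gzmb to Prf1 is below 0 only in GelMA. The outlying NC points for Cd8b to Cd8a and Klrd1 to Cd3e are NC replicate 1, with 0 counts of Cd8b and Klrd1.

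The likeness of other genes to the CD3 chains was measured as the root mean square difference between centred log2 CPM profiles over the 11 libraries, which is a description. The closest of 14227 genes were Cd247, the CD3 zeta chain, at 0.18 log2 units, Il2rb, a chain of the interleukin 2 receptor, at 0.28, the costimulatory receptors Cd28 at 0.31 and Icos at 0.34, the T cell receptor kinase Zap70 at 0.34 and Gimap4, a GTPase of lymphocytes, at 0.37. The median of all genes was 1.77. Of the other members, Cd8a was nearest at 0.45, followed by Prf1 at 0.68, Cd4 at 0.71, Cd8b at 1.26, Gzmb at 1.45 and Klrd1 at 1.54, and Nkg7 was farthest at 2.08, beyond the median gene. Cd8b and Klrd1 had 0 counts in NC replicate 1. Their log2 values there, and in part their distances, rest on the small count added before taking logs. Nkg7, Gzmb, Prf1 and Klrd1 shared no common profile, since Nkg7 and Klrd1 lay 1.43 and 1.32 from their joint mean, more than the median gene at 1.07, with Prf1 at 0.81 and Gzmb at 0.48. The genes closest to that mean were LOC120096270, Bcl2l14, Abcg1, Trex1, Golm1 and Cbfa2t3, at 0.29 to 0.36.

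Other genes of T cell receptor signaling and identity followed the CD3 chains. Of 26 listed genes, 21 were called higher in GelMA than in NC (5.03% of all genes), with a median log2 fold change of 3.53, and 16 were called higher in PLA than in NC (8.32% of all genes), with a median of 1.67. CTS had 15 called lower than GelMA (1.32% of all genes) and PLA had 10 (1.47%). The adhesion receptor Cd2 stood at 4.97 to 6.89 CPM in NC, 99.8 to 129.7 CPM in GelMA, 10.4 to 24.7 CPM in CTS and 53.9 to 55.1 CPM in PLA. Its log2 fold change was 4.25 ± 0.32 in GelMA against NC, adjusted p = 0.000265, and 3.21 ± 0.33 in PLA against NC, adjusted p = 0.000186. Il7r, the interleukin 7 receptor that maintains resting T cells, was nearly as high in PLA (182 and 243 CPM) as in GelMA (206 to 275 CPM), above NC by 3.14 ± 0.35, adjusted p = 0.000337, and above CTS by 1.87 ± 0.34, adjusted p = 0.00627, of which the call against CTS was lost without PLA replicate 1 (adjusted p = 0.0635). The adaptor Lat was higher in PLA than in CTS by 2.28 ± 0.36, adjusted p = 0.00291.

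Some of these genes separated PLA from GelMA. Cd27, a costimulatory receptor, stood at 20.7 to 25.6 CPM in GelMA and at 2.78 and 2.88 CPM in PLA, a log2 fold change of -3.003 ± 0.56, adjusted p = 0.0103. The kinase Lck was lower by -1.99 ± 0.41, adjusted p = 0.0158. Both calls were lost without either PLA library (adjusted p up to 0.106 and 0.139). The genes of this list not called in GelMA against NC were Lcp2, Ubash3a, Lef1, Rag1 and Rag2, named after their values were seen, of which Lef1 had a log2 fold change of 1.42 ± 0.42, adjusted p = 0.0579. Rag1, part of the recombinase active in lymphocyte precursors, stood at 8.15, 0.18 and 1.91 CPM in NC, 0.36 to 1.02 CPM in GelMA, 1.21 to 10.8 CPM in CTS and 0.46 and 0.95 CPM in PLA, with a log2 fold change of -2.33 ± 1.13 in GelMA against NC, adjusted p = 0.207.

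Among T cell subset and trafficking genes, 20 of 21 listed were tested, and 16 were called higher in GelMA than in NC and 12 in PLA than in NC, where 5.03% and 8.32% of all genes were, with medians of 3.91 and 2.67. Ctla4, the inhibitory receptor of regulatory and activated T cells, stood at 1.36 to 2.89 CPM in NC and 87.5 to 98.5 CPM in GelMA, a log2 fold change of 5.45 ± 0.50, adjusted p = 0.00045. It stood at 22.5 and 38.8 CPM in PLA, 3.84 ± 0.48 above NC, adjusted p = 0.000652. Cxcr6, a chemokine receptor of tissue T cells, was higher by 5.90 ± 0.84 in GelMA, adjusted p = 0.00247, and by 4.54 ± 0.83 in PLA, adjusted p = 0.00562, against NC libraries at 0 to 1.00 CPM. Foxp3, the factor of regulatory T cells, named after its values were seen, stood at 12.9 to 18.6 CPM in GelMA and 3.40 and 8.81 CPM in PLA beside 0.36 to 1.76 CPM in NC.

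Tbx21, the factor T-bet of interferon-producing T cells, was among 4 of these genes called lower in PLA than in GelMA, where 1.47% of all genes were. It stood at 31.8 to 33.5 CPM in GelMA, 3.57 and 6.92 CPM in PLA, 5.56 to 10.4 CPM in CTS and 2.08 to 3.35 CPM in NC. The log2 fold change of PLA against GelMA was -2.64 ± 0.39, adjusted p = 0.00299, and held without any 1 library. Cxcr3, a receptor found on the same cells, was lower by -2.00 ± 0.54, adjusted p = 0.0461, a call that was lost without any GelMA library, CTS replicate 1 or either PLA library (adjusted p up to 0.287). Il2ra was the 1 gene of the list called higher in PLA than in CTS, where 6.42% of all genes were (1.56 ± 0.42, adjusted p = 0.0339), and the call was lost on leaving out any of 8 libraries, all except NC replicates 1 and 2 and CTS replicate 3 (adjusted p up to 0.150). CTS had 9 genes of the list called lower than GelMA (1.32% of all genes), among them Ctla4 (-3.03 ± 0.44, adjusted p = 0.0136) and Icos (-2.91 ± 0.47, adjusted p = 0.0176), both lost without any GelMA library or CTS replicate 1 (adjusted p up to 0.082 and 0.102).

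Natural killer cell receptors and adaptors gave 12 of 25 called higher in GelMA than in NC and 9 in PLA than in NC, beside 5.03% and 8.32% of all genes. The medians were 2.84 and 2.11, and the latter was 2.02 with the gene at 0 counts in NC set to its bound. Klrc3, an NKG2 chain that pairs with CD94, stood at 0 to 0.18 CPM in NC, 6.52 to 11.3 CPM in GelMA, 0.22 to 6.70 CPM in CTS and 6.75 and 7.96 CPM in PLA, with log2 fold changes against NC of 6.14 ± 1.17 in GelMA, adjusted p = 0.0108, and 5.99 ± 1.21 in PLA, adjusted p = 0.00883. Ncr1, the receptor NKp46 that defines natural killer cells, did not follow the T cell genes. It stood at 8.95, 2.12 and 13.6 CPM in NC, 7.63, 8.92 and 11.9 CPM in GelMA, 7.18, 5.18 and 5.41 CPM in CTS and 32.7 and 32.7 CPM in PLA, so that PLA lay above all other libraries and the other groups overlapped. PLA exceeded CTS by 2.46 ± 0.55, adjusted p = 0.0168, a call that was lost without any CTS or PLA library (adjusted p up to 0.0849). PLA also exceeded NC in Ncr1 by 1.99 ± 0.55, adjusted p = 0.0353. Against GelMA the difference of 1.79 ± 0.55 did not pass, adjusted p = 0.0704. Klrb1b was also higher in PLA than in NC by 3.74 ± 1.08, adjusted p = 0.0417, and kept that call on leaving out 3 of 11 libraries, namely NC replicate 2, CTS replicate 1 and CTS replicate 3 (adjusted p up to 0.136). Of the 25 genes, 0 were called higher and 3 lower in PLA than in GelMA, beside 4.61% and 1.47% of all genes. The 3 were Klrk1 (-1.52 ± 0.41, adjusted p = 0.0471), Cd226 (-1.48 ± 0.37, adjusted p = 0.037) and Cd96 (-1.46 ± 0.36, adjusted p = 0.0323). The Klrk1 and Cd226 calls were lost without any GelMA library, CTS replicate 1 or either PLA library (adjusted p up to 0.249 and 0.24). The Klr genes lie together as similar copies, with Klrd1 between Klre1 and Klrk1 in the annotation, and how shared reads were assigned is not given.

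Sh2d1b, an adaptor of natural killer cell receptors, was the 1 gene of the list called higher in CTS than in NC, where 0.155% of all genes were. It stood at 24.1 to 31.3 CPM in CTS, 13.8 to 16.1 CPM in GelMA, 13.2 and 13.5 CPM in PLA and 4.93 to 10.6 CPM in NC, and the log2 fold change of CTS against NC was 1.93 ± 0.27, adjusted p = 0.0441. The call was lost on leaving out any of 7 libraries, which were all GelMA and PLA libraries and CTS replicates 1 and 3 (adjusted p up to 0.177).

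Cytotoxic granule and death ligand genes were split. Of 18 tested, 5 were called higher and 1 lower in GelMA than in NC, with a median of -0.10, and 3 were higher and 3 lower in PLA than in NC, with a median of 0.71. Over all genes, 5.03% were higher and 3.21% lower in GelMA than in NC, and 8.32% and 4.01% in PLA than in NC. The genes that rose in GelMA were Serpinb9 and also Gzmk, Gzmm, Faslg and Ctsw, products of T cells and natural killer cells. Ctsw, the protease cathepsin W of those cells, stood at 2.55 to 6.66 CPM in NC and 91.9 to 115.9 CPM in GelMA, a log2 fold change of 4.40 ± 0.51, adjusted p = 0.00081, and in PLA it stood at 16.9 and 19.7 CPM, below GelMA by -2.48 ± 0.54, adjusted p = 0.0210, a call that was lost without any GelMA or PLA library (adjusted p up to 0.160). Faslg, the Fas ligand, was higher in PLA than in NC by 2.38 ± 0.34, adjusted p = 0.00135. Gzmc stood at 18.8 and 6.75 CPM in PLA beside 0 to 3.74 CPM in all other libraries, 5.06 ± 0.97 above NC, adjusted p = 0.00699, and the call was lost without PLA replicate 1 (adjusted p = 0.067).

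The genes of this list that fell in PLA against NC were Tnfsf10, a death ligand made by many cells, and Rab27a and Lyst, which serve lysosome-related organelles in many cell types including granulocytes. Rab27a stood at 557.6, 127 and 408 CPM in NC, 104 to 135 CPM in GelMA, 232 to 396 CPM in CTS and 66.4 and 83.0 CPM in PLA. Rab27a was low in NC replicate 2, in GelMA and in PLA, and the neutrophil sums given above were low there too. The part of neutrophils in the Rab27a values was not tested. The log2 fold change of Rab27a in PLA was -2.29 ± 0.53 against NC, adjusted p = 0.0166, lost without either PLA library (adjusted p up to 0.133), and in GelMA against NC it was -1.60 ± 0.44, adjusted p = 0.0450, lost on leaving out any of 9 libraries, all except NC replicate 2 and CTS replicate 3 (adjusted p up to 0.146).

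Lymphocyte cytokine genes gave 9 of 15 tested called higher in GelMA than in NC and 7 in PLA than in NC, against shares of 5.03% and 8.32% over all genes. The medians were 3.75 and 2.84, and 3.61 and 2.93 with genes at 0 counts in a group set to their bound. Il17f had 1 count over the 3 NC libraries, 634 in GelMA, 23 in CTS and 345 in PLA. The ratio to NC was 453 in GelMA (95% counting interval 81.0 to 17900) and 523 in PLA (93.2 to 20700), which covers counting error only, and PLA exceeded CTS by a log2 fold change of 4.88 ± 0.60, adjusted p = 0.000783. Il17a, its relative, ran from 8.44 to 40.4 CPM in GelMA and stood at 22.6 and 17.6 CPM in PLA, beside 2.37 to 4.64 CPM in CTS and 0.46 to 1.27 CPM in NC. Il22 had 0 counts in all NC libraries, 339 over the GelMA libraries and 111 over PLA, which is at least 80.8-fold and at least 56.1-fold higher against a floor of 3 counts over the NC group. The Il22 calls were lost without any GelMA library in GelMA against NC (adjusted p up to 0.0575) and without either PLA library in PLA against NC (adjusted p up to 0.0642).

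Of the 15 cytokine genes tested, 1 was called higher and 1 lower in PLA than in GelMA, beside 4.61% and 1.47% of all genes. Il10, an anti-inflammatory cytokine made by T cells and macrophages, stood at 5.02 to 10.5 CPM in NC, 86.0 to 101.8 CPM in GelMA, 13.4 to 27.4 CPM in CTS and 207 and 278 CPM in PLA. PLA exceeded CTS in Il10 by 3.66 ± 0.35, adjusted p = 0.000171. Il10 was the 1 gene of the 15 tested called higher in PLA than in GelMA, where 4.61% of all genes were (1.41 ± 0.33, adjusted p = 0.0289). That call was lost without any GelMA or PLA library (adjusted p up to 0.198). Ccl5, a chemokine of activated T cells, was lower in PLA, at 34.8 and 46.0 CPM beside 140.1 to 157 CPM in GelMA, by -1.87 ± 0.47, adjusted p = 0.0377, and this call was lost without the same libraries (adjusted p up to 0.247). Ifng, interferon gamma, had 0, 12 and 0 counts in NC, 161 to 241 in GelMA, 8 to 64 in CTS and 12 and 25 in PLA. Ifng was named after its values were seen, and it did not pass in PLA against GelMA (-2.85 ± 1.30, adjusted p = 0.205).

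Of the markers of other cells, those of B cells were also higher in GelMA, and those of fibroblasts and osteoblasts did not follow the members. The sum of 10 B cell markers was 358 to 504 CPM in GelMA, 74 to 240 CPM in NC, 167 to 201 CPM in CTS and 100 to 124 CPM in PLA, and 7 of 10 were called higher in GelMA than in NC (5.03% of all genes). In PLA, where T cell genes were above NC, the B cell sum lay within the NC range only through NC replicate 2, at 240 CPM. The sums in NC replicates 1 and 3 were 73.8 and 97.0 CPM, below both PLA libraries. Of the 10 markers, 1 was called higher in PLA than in NC and 0 lower, beside 8.32% and 4.01% of all genes. This was Ms4a1 (2.48 ± 0.70, adjusted p = 0.0392). Against GelMA, 6 of 10 were called lower in PLA (1.47% of all genes). The sum of 12 fibroblast and osteoblast markers was 25281 to 26248 CPM in GelMA and 22959 to 38352 CPM in CTS and PLA, and ran from 9506 to 229300 CPM in NC, with NC replicate 2 at the top. Of these 12 markers 0 passed the 4-group test, beside 18.8% of all genes tested. The part of these other cells in the values of the T and natural killer cell genes was not tested.

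**Figure D4:**
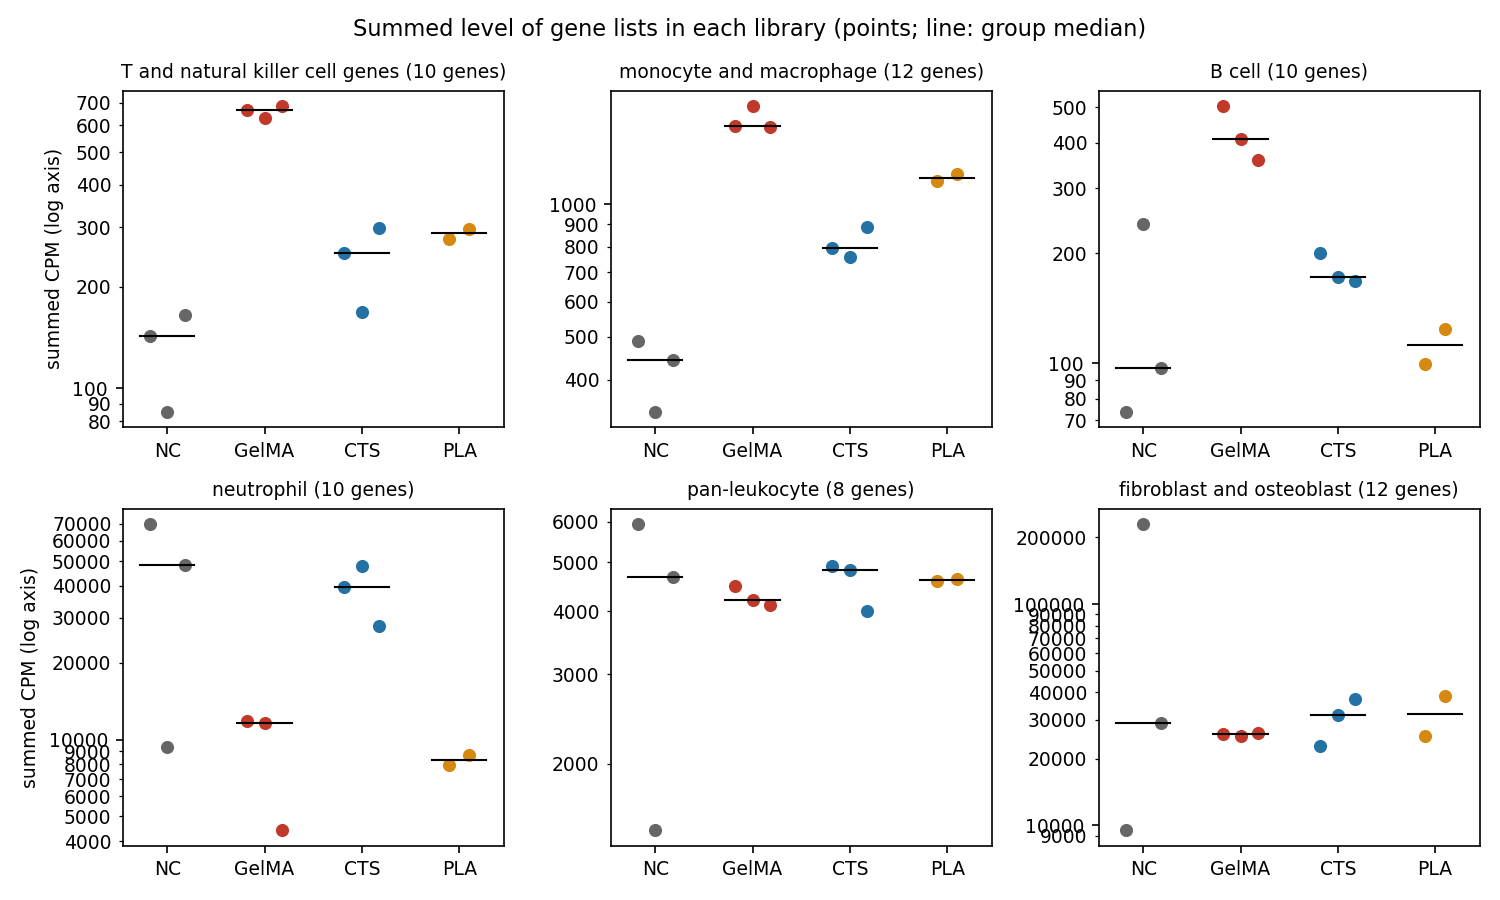
Summed level of the 10 T and natural killer cell genes and of 5 marker lists of other cells in each library, in CPM on log axes, by group. Points are libraries and lines are group medians. The T and natural killer cell sum and the monocyte and macrophage sum are highest in GelMA, the neutrophil sum is high in CTS and in 2 of 3 NC libraries, and NC replicate 2 is the low pan-leukocyte point at 1476 and the high fibroblast point at 229300.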

How the data were processed

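The measurements are bulk RNA-seq of 11 libraries, each made from cells gated as Cd45- after collagenase treatment of the defect tissue. Per the labels, the authors' processing used fastp, HISAT2, HTSeq and DESeq with rat assembly mRatBN7.2; versions and the strand setting are not given in the sources used here. The authors deposited raw counts and FPKM for 23781 genes by symbol. The deposited FPKM equals count over length and total within a relative tolerance of 0.001 for all 205408 values above 0. FPKM served for levels between genes and in alternatives.

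Counts were fitted in R 4.3.3 with edgeR 4.0.16 (TMM, filterByExpr at a minimum count of 10, robust quasi-likelihood, 1 model of 11 libraries, group as the only term). Adjusted p is Benjamini-Hochberg over 18049 genes within a comparison. A gene was called at adjusted p below 0.05 with a log2 fold change over 1 in size. The standard error is the log2 fold change over the square root of F. Alternatives were scaling by RLE or by library size, dropping the filter or the fold threshold, fitting the 2 groups alone, DESeq2 1.42.0, limma 3.58.1 on log2(FPKM + 1) or log2(FPKM + 0.1), a replicate block and each library left out. Ratios used Python 3.11.15, as did the figures (matplotlib 3.10.9). Steps were tested on simulated counts.

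Depth was 22509898 to 31290849 counts per library. Intervals and floors cover counting error only.

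The members and lists were chosen with earlier results of these data known. From each of 5 related lists, up to 2 genes per direction and comparison were named by size of log2 fold change, at an average log2 CPM of at least 0; most of these are given, and others named are so marked or are given as counts. Fasl was matched as Faslg, and Gzmbl2 and Il9 were not matched. Promoter windows came from RefSeq (GRCr8), where 7 of 10 members were matched. Imaging and flow cytometry were not analysed here.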

Additional observations from a re-analysis of the deposited data

How the results depend on the processing

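In GelMA against NC, 9 members were called higher in the main analysis, and the count stayed within 7 to 9 under every alternative and on leaving out each library. PLA against NC went from 7 higher to 3 with the 2 groups alone and 4 with limma on unfiltered log2(FPKM + 1), and from 1 lower to 0 without the filter, with the 2 groups alone and with each limma fit. PLA against GelMA went from 2 lower to 5 with library size alone, 7 with the 2 groups alone, 4 with DESeq2, and 7, 6 and 6 with limma (log2(FPKM + 1) filtered, log2(FPKM + 0.1) filtered, log2(FPKM + 1) unfiltered). PLA against CTS went from 1 higher to 0 with library size alone, without the filter, with the 2 groups alone and with limma, and from 0 lower to 1 with library size alone, the 2 groups alone, DESeq2 and filtered limma. CTS against NC went from 0 higher to 5 with DESeq2, and CTS against GelMA from 4 lower to 7 with the 2 groups alone and with limma on filtered log2(FPKM + 1). On leaving out each library, the counts ran from 3 to 7 higher and 0 to 1 lower in PLA against NC, 0 to 4 lower in PLA against GelMA, 0 to 1 higher and 0 to 1 lower in PLA against CTS, 0 to 3 higher in CTS against NC and 0 to 6 lower in CTS against GelMA. The cause was not tested, apart from the fewer libraries of the smaller fits.

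On leaving out each library, the adjusted p of the ratios ran from 0.00667 to 0.0911 for Cd3e to Ptprc, 0.00286 to 0.0911 for Gzmb to Prf1, 0.00286 to 0.241 for Cd8a to Cd4, 0.06 to 0.453 for Cd8b to Cd8a, 0.0508 to 0.961 for Klrd1 to Cd3e and 0.0543 to 0.474 for Prf1 to Cd3e.

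The replicate numbers did not pair the libraries: the deviations of 15 same-numbered pairs correlated at -0.108 to 0.118, with 1 pair over 0.1, and those of 30 other pairs at -0.191 to 0.258. With the replicate block, the counts were 0 lower in PLA against NC, 0 lower in PLA against GelMA and 0 higher in PLA against CTS, and the log2 fold change became 0.59 for Cd8b in PLA against CTS and 0.10 for Nkg7 in CTS against NC.

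Library size alone shifted the median log2 fold change of all genes to -0.43, -0.58 and -0.51 in PLA against NC, GelMA and CTS, and the calls over all genes to 1078 higher and 1531 lower, 438 and 2312, and 688 and 2227, from 1502 and 724, 832 and 266, and 1158 and 637. Small changes that were not called turned sign in 33 cases. In PLA against CTS these were Cd8a (main 0.05, then -0.43 with library size, -0.26, -0.27 and -0.26 with limma, from -0.3375 to 0.5216 on leaving out a library, below 0 without CTS replicate 1, CTS replicate 2 or PLA replicate 2), Cd8b (main -0.17, from -0.55 to 0.64 on leaving out a library, above 0 without CTS replicate 3), Gzmb (main 0.22, then -0.26 with library size, -0.28, -0.29 and -0.28 with limma, from -0.16 without PLA replicate 1 to 0.51 without PLA replicate 2) and Klrd1 (main 0.39, then -0.0912 with library size, from -0.0746 to 0.786 on leaving out a library, below 0 without CTS replicate 2 or PLA replicate 2). In PLA against GelMA they were Gzmb (main 0.48, then -0.0569 with library size, -0.0723, -0.0758 and -0.0723 with limma) and Prf1 (main -0.32, from -0.86 without PLA replicate 1 to 0.0629 without PLA replicate 2). For Nkg7 they were 0.0143, 0.0278 and 0.0143 with limma in GelMA against NC, and in CTS against NC 0.0417 with library size, 0.46, 0.48 and 0.46 with limma, and from -0.46 without NC replicate 2 to 0.31 without NC replicate 3, above 0 also without NC replicate 1 or CTS replicate 3. Depth limited Cd8b and Klrd1 most in NC, at 38 and 119 counts over the group.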
